A study of Mus musculus with 16 samples.

Results

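Oxidative phosphorylation genes encode the respiratory chain and the ATP synthase of the inner mitochondrial membrane. They were taken as the protein-coding genes of the deposited count table whose symbols begin with mt-Nd, mt-Co, mt-Cytb, mt-Atp, Nduf, Uqcr, Cox4 to Cox8, Atp5 or are Sdha to Sdhd. The rule used symbols only and found 105 of 47719 genes, 13 in the mitochondrial genome and 92 in the nucleus. RNA came from livers of male C57BL/6 wild-type mice, and the 16 libraries each pooled RNA of 3 mice. There were 2 libraries of untreated 1-month-old controls, 3 of 1-month-old mice taken 2 days after diethylnitrosamine (DEN) and 3 taken 6 days after it. The same 3 conditions in 6-month-old mice gave 2, 3 and 3 libraries. DEN is a liver carcinogen that becomes DNA-reactive once hepatocytes metabolise it, and the labels give an intraperitoneal dose of 25 mg/kg. The labels give the young mice as 3 to 4 weeks old. The sources used here do not say when the controls were taken and name none matched to day 2 or day 6. At either age the days that passed and the DEN therefore cannot be told apart.

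Electrons from NADH enter the chain at complex I and electrons from succinate at complex II, and pass through complex III to complex IV, where oxygen is reduced. Complexes I, III and IV pump protons, and complex V, the ATP synthase, uses the gradient to make ATP. The mitochondrial genome encodes core subunits of complexes I, III, IV and V on polycistronic transcripts, while all subunits of complex II and all other subunits come from the nucleus. Hepatocytes are rich in mitochondria, which supply ATP for gluconeogenesis, ureagenesis and bile formation.

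By symbol, the nuclear genes held 38 of complex I, 7 complex I assembly factors (Ndufaf), 4 of complex II, 8 of complex III, 18 of complex IV and 17 of complex V. Ndufa4 is counted with complex I by its symbol, although its protein is now placed in complex IV. Atp5s and Atp5sl are likewise counted with complex V by symbol alone. The mitochondrial genes held 7 of complex I, 1 of complex III, 3 of complex IV and 2 of complex V. Of the 105 genes, 100 passed the filter on low counts, all 13 mitochondrial and 87 nuclear. The 5 that did not were Cox4i2, Cox6a2, Cox8b, Cox7b2 and Cox8c, and the last 2 were listed at 0 in every library.

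Libraries held 19039330 to 34459774 counts. Alb was listed at 0 in all 16, so the hepatocyte label rested on the other 8 hepatocyte markers, whose summed level was 34790 to 54338 CPM (a gene's counts relative to the total of its library, after TMM scaling) at 1 month and 35060 to 42748 CPM at 6 months. Between the ages, 3 of those 8 were called lower and none higher at 6 months (edgeR, adjusted p below 0.1). Of 5 sinusoidal endothelial markers 3 were lower, while 3 of 6 macrophage and 3 of 4 lymphocyte markers were higher. Of 6 stellate cell markers 2 were higher and 2 lower, and of 3 erythroid markers 1 was higher and 2 lower. Of 5 cholangiocyte markers 1 was lower, the 1 tested adipocyte marker was higher, and neither tested neutrophil marker was called. That adipocyte marker, Cfd, was low throughout, at 2.29 and 1.11 CPM in 6-month controls. On 6-month DEN day 6 it was at 0.038, 0 and 0.081 CPM, within the 1-month range of 0 to 0.153 CPM. Averaged over control, DEN day 2 and DEN day 6, 10.5% of all genes tested were called lower and 22.6% in either direction. In bulk tissue, fewer cells of a type and less RNA per cell cannot be told apart. The libraries 1-month control replicate 2, 1-month DEN day 2 replicate 3 and 1-month DEN day 6 replicate 2 stood apart from the other 1-month libraries in clock genes. Dbp, an output gene of the circadian clock, was at 1.87, 0.871 and 0.376 CPM in them and at 28.1 to 128 CPM in the other 5 libraries of that age, and Arntl, which encodes the core clock activator BMAL1, was at 31.0, 35.2 and 37.8 against 0.805 to 10.7 CPM. Shares of counts and several medians and numbers of calls are therefore also given without these 3 libraries, which leaves replicate 1 as the only 1-month control. Fold changes of named genes, and all values of the other gene lists and regulators below, are from all 16 libraries only. The 6-month libraries were not uniform either. 6-month DEN day 2 replicate 3 was at 6.24 CPM for Dbp and 22.4 for Arntl. Its group mates were at 54.7 and 77.5 CPM for Dbp and 1.22 and 4.93 for Arntl. 6-month DEN day 6 replicate 3 was at 14.3 and 16.2 CPM. Its group mates were at 80.3 and 39.7 and at 1.15 and 12.9 CPM. These 6-month libraries were left out only 1 at a time.

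The level of the mitochondrial genes has first to be read against copies of their sequence. A segment of chromosome 1 carries 7 annotated pseudogenes that match stretches of mt-Nd4, mt-Nd4l, mt-Nd3, mt-Co3, mt-Atp6, mt-Co2 and mt-Co1. The first 100 bases of mt-Co2, a core subunit of complex IV that takes electrons from cytochrome c, are shown because they were the same, base for base, as those of the pseudogene Gm28661. The mt-Co2 stretch is chrM:7013-7112 on the plus strand and that of Gm28661 chr1:24615466-24615565 on the minus strand, both in GRCm38, and the line below holds for both.

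mt-Co2: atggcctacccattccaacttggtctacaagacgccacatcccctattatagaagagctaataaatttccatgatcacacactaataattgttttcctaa

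Over their whole length, Gm28661 and mt-Co2 were identical in 681 of 681 bases compared, Gm28437 and mt-Co3 in 783 of 783, Gm10925 and mt-Atp6 in 678 of 678, and Gm10222 and mt-Nd4l in 294 of 294. Gm28438 and mt-Nd3 differed at 1 of 345 bases. Gm28439 matched 876 bases of the 1378 of mt-Nd4, and Gm29216 matched 486 of 492 bases of mt-Co1, which is 1545 bases long. On chromosome 1 the 233 bases between the copies of mt-Atp6 and mt-Co2, where mt-Atp8 lies in the mitochondrial genome, hold no annotated transcript with its sequence. The comparison was with annotated transcripts, so it cannot show whether an unannotated copy of mt-Atp8 lies there.

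The 5 genes whose sequence was almost wholly shared had counts far below the other 8. Per kilobase of transcript, mt-Co3 averaged 1.41 CPM, mt-Co2 1.62 CPM, mt-Nd3 10.6 CPM, mt-Atp6 16.1 CPM and mt-Nd4l 41.1 CPM over the 16 libraries. Of their 50-base words, 98.0 to 100% also occurred in another annotated transcript. The other 8 genes averaged between 2036 CPM per kilobase in mt-Nd4, 62.2% of whose words were shared, and 9794 CPM per kilobase in mt-Atp8, which shared none. The 7 pseudogenes themselves held few reads, at most 27 in any library. The sources used here do not say how reads that match several places were counted, and its part in these levels was not tested. The values of mt-Co2, mt-Co3, mt-Nd3, mt-Atp6 and mt-Nd4l are therefore uncertain, mt-Nd4 and mt-Co1 may miss part of their reads, and the mitochondrial share of counts below is a share of what was counted.

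**Figure D1:**
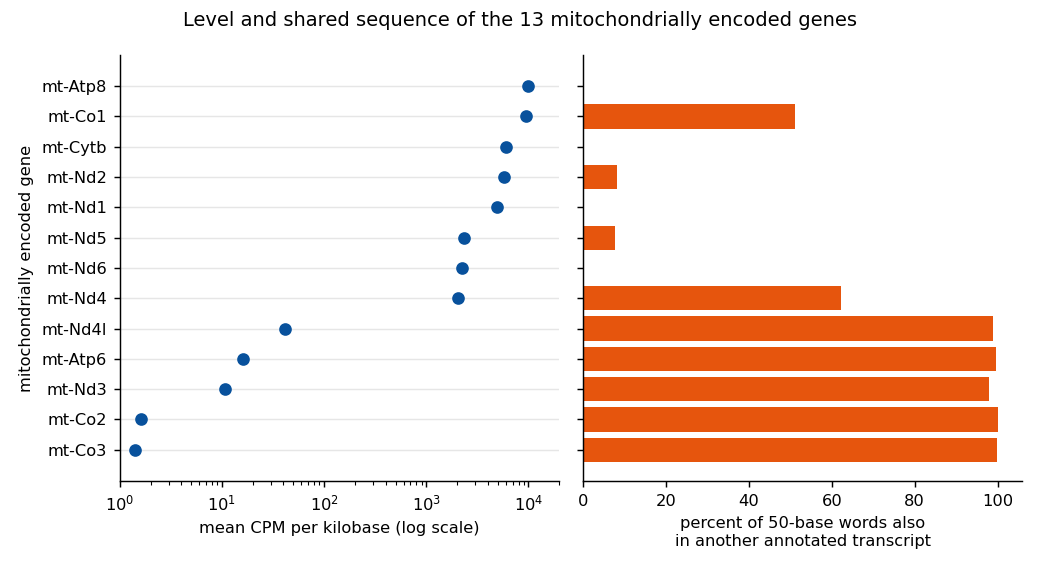
Mean level over the 16 libraries in CPM per kilobase of transcript (left, log axis) and percent of 50-base words found in another annotated transcript (right) for each of the 13 mitochondrially encoded genes. The 5 genes with at least 98.0% shared words lie between 1.41 and 41.1 CPM per kilobase, and the other 8 lie at 2036 or above.

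Among the other 8 genes, mt-Atp8, a small subunit of the ATP synthase, and mt-Co1, the catalytic subunit of complex IV, stood highest as counted, at 9794 and 9419 CPM per kilobase. mt-Cytb, the only mitochondrially encoded subunit of complex III, had 5974, mt-Nd2 5733 and mt-Nd1 4911 CPM per kilobase. mt-Nd5 had 2333 and mt-Nd6 2249 CPM per kilobase; mt-Nd6 is the only 1 of the 13 on the minus strand, and its end overlaps that of mt-Nd5. The sources used here do not say whether counting used strand, so reads of overlapping genes on opposite strands cannot be told apart. mt-Atp8 also overlaps mt-Atp6 by 43 bases. The 2 ribosomal RNA genes of the mitochondrial genome were listed at 0 in all libraries, and its 22 transfer RNA genes held 7 counts in all.

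The 13 mitochondrial genes took 2.18 to 5.28% of a library's counts, with a median of 4.42%. In 1-month controls their share was 4.84 and 2.39%, on DEN day 2 it was 4.50, 4.30 and 3.52%, and on DEN day 6 it was 5.001, 2.18 and 3.82%. In 6-month controls it was 5.28 and 5.12%, on DEN day 2 4.03, 4.73 and 4.09%, and on DEN day 6 4.799, 5.09 and 4.33%. The lowest 3 shares were those of the 3 libraries that stood apart in Dbp and Arntl, and the largest gap between replicates was in the 1-month groups. In 1-month control replicate 2 and 1-month DEN day 6 replicate 2, 0 of the 13 genes were above their own mean over the 16 libraries, and in 1-month control replicate 1 all 13 were. Whether the state of the clock genes has a part in this was not tested. The mean was 3.82% ± 1.07 at 1 month and 4.68% ± 0.483 at 6 months (SD, n = 8 each), and 4.49% ± 0.466 at 1 month (n = 5) without the 3 libraries.

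The 92 nuclear genes took 1.02 to 1.68% of counts. In 1-month controls this was 1.25 and 1.02%, on DEN day 2 1.27, 1.68 and 1.21%, and on DEN day 6 1.27, 1.02 and 1.33%. In 6-month controls it was 1.12 and 1.15%, on DEN day 2 1.10, 1.26 and 1.09%, and on DEN day 6 1.197, 1.15 and 1.06%. A library high for the mitochondrial genes was not necessarily high for the nuclear ones. In 1-month DEN day 2 replicate 2 all 87 tested nuclear genes were above their own mean, by a median of 0.54 on the log2 scale, but only 5 of the 13 mitochondrial genes were. In 6-month DEN day 2 replicate 3 and 6-month DEN day 6 replicate 3, 1 and 2 of the 87 were above their mean. These libraries had the lowest Dbp and the highest Arntl at 6 months, and whether that has a part was not tested. The mean share was 1.26% ± 0.206 at 1 month and 1.14% ± 0.0653 at 6 months (SD, n = 8 each), and 1.36% ± 0.182 at 1 month (n = 5) without the 3 libraries that stood apart.

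**Figure D2:**
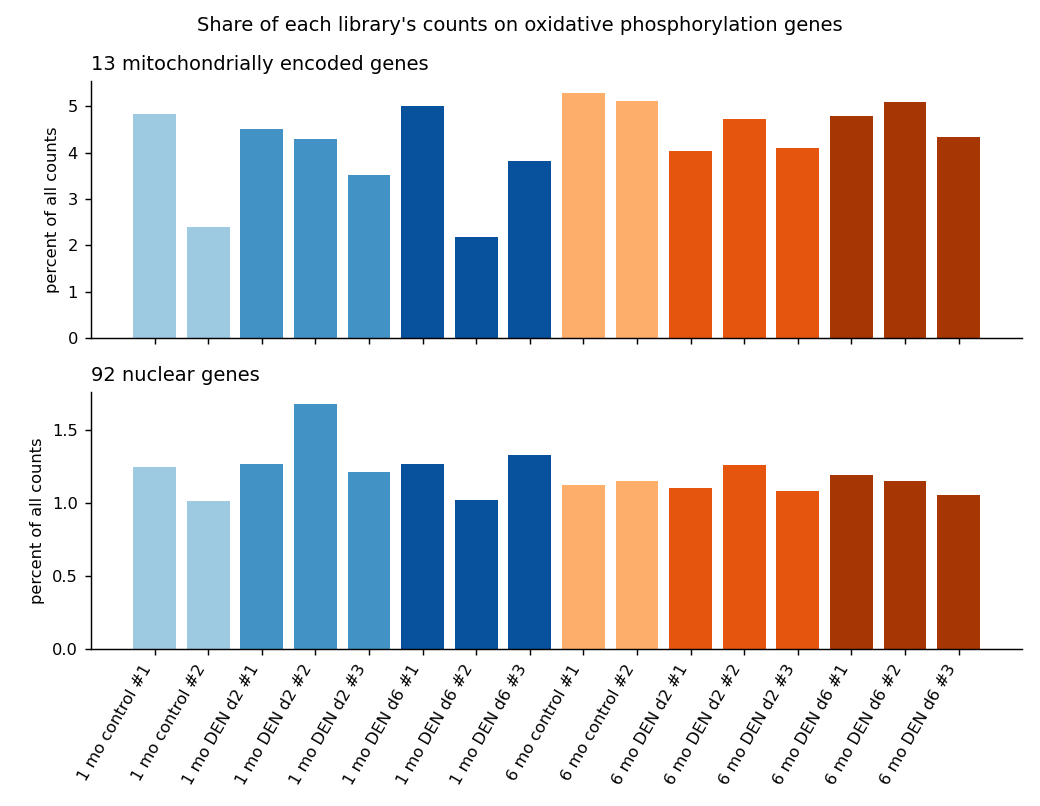
Percent of all counts of each library that fell on the 13 mitochondrially encoded genes (top) and on the 92 nuclear genes (bottom), 1 bar per library, coloured by group. The shares of 2.39 and 2.18% in 1-month control replicate 2 and 1-month DEN day 6 replicate 2 lie below all others in the upper panel, and 1-month DEN day 2 replicate 2 has the highest nuclear share, 1.68%.

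**Figure D3:**
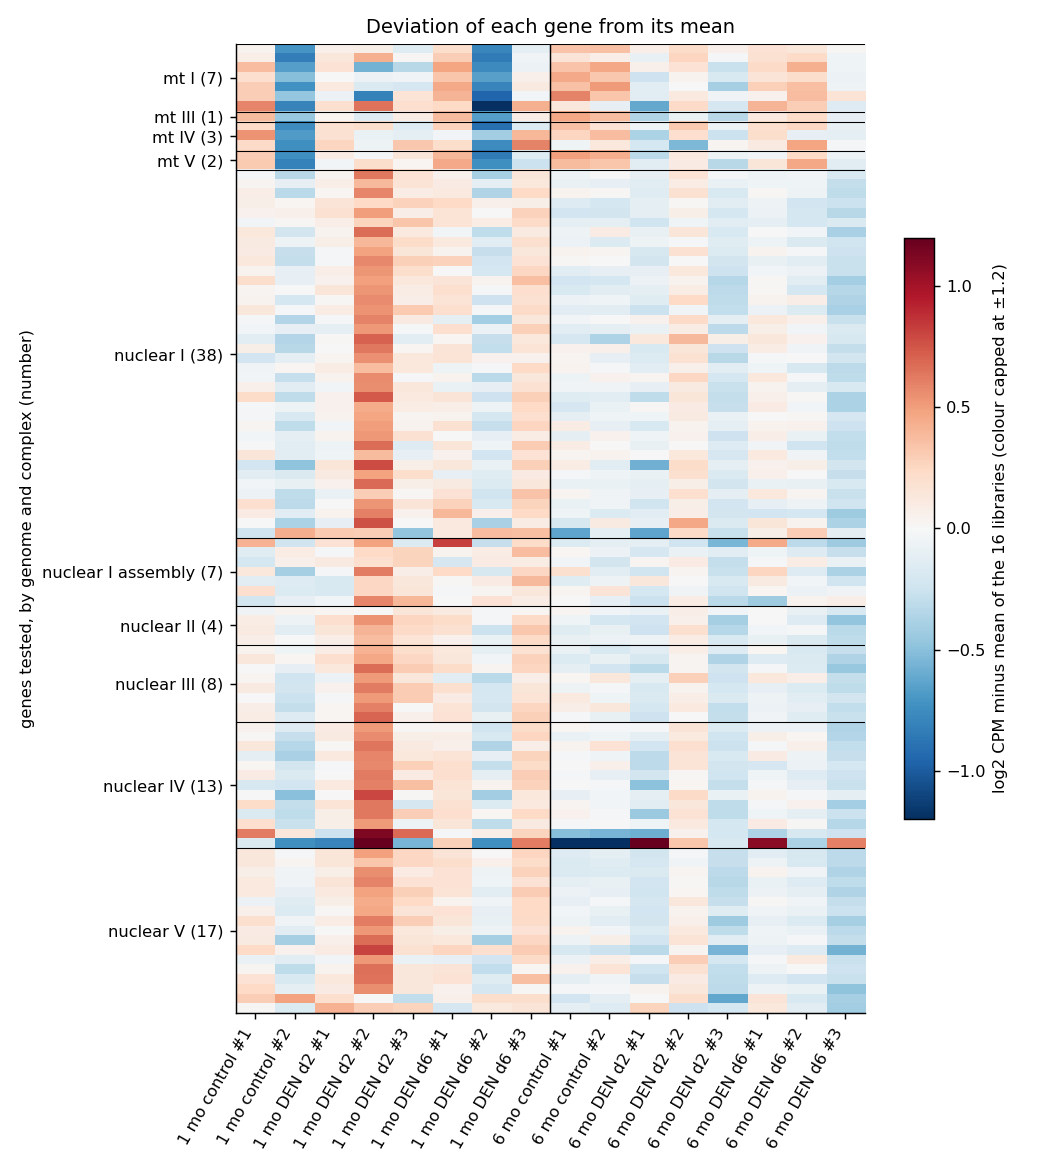
Log2 CPM of each of the 100 tested genes minus its mean over the 16 libraries, rows grouped by genome and complex and ordered by level, columns by library; the vertical line parts the ages. The mitochondrial rows are low in 2 of the 1-month libraries, the nuclear rows are high as a block in 1-month DEN day 2 replicate 2, and most nuclear rows are below their mean in the 6-month libraries other than DEN day 2 replicate 2.

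Levels of the nuclear genes differed widely within a complex. In complex V, Atp5b and Atp5a1, the catalytic beta subunit and the alpha subunit of the ATP synthase, had 687 and 439 CPM per kilobase. Among the genes counted with complex I by symbol, Ndufa4, whose protein is now placed in complex IV, had 601 CPM per kilobase. Ndufb9 had 243 and Ndufa4l2, the lowest by this placing, 1.17 CPM per kilobase. In complex II, Sdha, the flavoprotein that oxidises succinate, had 190, Sdhd 179 and Sdhb 172 CPM per kilobase, and Sdhc, a membrane anchor, 49.4. In complex III, Uqcrh was highest at 260 and Uqcrc2, a core protein, lowest at 136 CPM per kilobase. The complex I assembly factors, which are not parts of the finished enzyme, lay far lower, between 3.97 CPM per kilobase in Ndufaf5 and 17.2 in Ndufaf1.

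Several complex IV subunits have a form of the liver and most tissues and a form of muscle, lung or testis. Cox4i1 had 391 CPM per kilobase against 0.082 of Cox4i2, the form of lung, Cox6a1 365 against 0.068 of Cox6a2, the heart and muscle form, and Cox8a 285 against 0.057 of Cox8b, another muscle form. Cox6b1 had 236 against 1.49 of Cox6b2, the testis form, and Cox7a2 198 against 3.15 of Cox7a1, the heart and muscle form. In each pair the form of most tissues was higher in every library. Cox7a2l had 86.8 CPM per kilobase. The muscle markers Ckm, Acta1, Myh4, Tnnt3 and Myl1 summed to at most 1.26 CPM in any library, and Myh6 was listed at 0. Subunit c, the rotor ring of the ATP synthase, is encoded by 3 genes with the same mature protein, and Atp5g3 had 499, Atp5g2 92.4 and Atp5g1 43.2 CPM per kilobase. Before division by transcript length, Atp5g1 held more counts than Atp5g2 in every library, such as 3451 against 1646 in 1-month control replicate 1. The order of Atp5g1 and Atp5g2 therefore depends on the transcript lengths used. Of the 50-base words of Atp5g2, 38.3% occur in another annotated transcript, so its level is uncertain. Among the 92 nuclear genes, 20 shared more than 10% of their words in this way and 1 more than 50%.

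The main difference was between the ages. Averaged over control, DEN day 2 and DEN day 6, 23 of 87 nuclear genes were lower at 6 months and 0 were higher, and 85 of 87 had a negative log2 fold change, with a median of -0.18. Over all 15684 genes tested, 10.5% were called lower, 22.6% were called in either direction and the median was -0.012. Calls throughout are at an adjusted p below 0.1 in edgeR's quasi-likelihood test, adjusted over all genes tested. None of the 13 mitochondrial genes was called at an adjusted p below 0.1 in this comparison by edgeR, 1 (mt-Nd2) had an unadjusted p below 0.05, where 29.9% of all genes did, DESeq2 called 1, and without 1-month control replicate 1 edgeR called 2. Their median log2 fold change was 0.20, opposite in sign to that of the nuclear genes, but -0.037 without the 3 libraries that stood apart. Without them 32 nuclear genes were lower, 22 of the 23 among them, and the nuclear median was -0.26. Without 6-month control replicate 2 the count was 15, and 13 of the 23 genes were called in all 23 alternative settings. The part of the markers of other cell types that differed between the ages in this result was not tested.

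Ndufs1, the largest iron-sulfur subunit of complex I, had the smallest p. Its level at 1 month had a lowest value of 156, a median of 166 and a highest of 185 CPM, and at 6 months these were 128, 138 and 154 CPM. All 8 libraries at 6 months lay below all 8 at 1 month, and the log2 fold change was -0.28 ± 0.061 (SE, adjusted p = 0.00725). Atp5a1 had a median of 1217 CPM at 1 month (range 1102 to 1354) and of 949 CPM at 6 months (range 865 to 1044), also with no overlap (log2 fold change -0.34 ± 0.074, adjusted p = 0.00752). Ndufa10, an accessory subunit of complex I, fell from a median of 144 to 121 CPM with no overlap (-0.27 ± 0.061, adjusted p = 0.00916). Uqcrc1, a core protein of complex III, fell from a median of 281 to 222 CPM, and 7 of the 8 libraries at 6 months were below the lowest at 1 month (-0.35 ± 0.079, adjusted p = 0.00923).

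Atp5g1 had a larger drop than the other called genes except Cox7a1. Its 1-month libraries ranged from 116 to 197 CPM and its 6-month libraries from 75.6 to 115 CPM, a log2 fold change of -0.52 ± 0.12 (adjusted p = 0.00994). The other genes of subunit c had smaller values, -0.28 ± 0.099 for Atp5g3 (adjusted p = 0.0717) and -0.19 ± 0.10 for Atp5g2, which was not called (adjusted p = 0.249). The differences among the 3 were not tested. Ndufb5, an accessory subunit of complex I, lay between 76.8 and 114 CPM in the 1-month libraries and between 59.8 and 76.5 CPM in the 6-month libraries (-0.35 ± 0.083, adjusted p = 0.0113). Among the tested nuclear genes, 6 had all 8 libraries at 6 months below all 8 at 1 month, namely Ndufs1, Ndufa10, Ndufb5, Atp5a1, Atp5b and Atp5g1. This was so for 1.71% of all genes tested.

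By complex, as the symbols place the genes, 8 of 17 of complex V, 8 of 38 of complex I and 3 of 8 of complex III were lower. In complex II 2 of 4, in complex IV 1 of 13 tested and among assembly factors 1 of 7 were lower, where 10.5% of all genes were. In complex IV and the assembly factors the share was near or below that of all genes. In complex V these were Atp5a1, Atp5b, Atp5c1, Atp5f1, Atp5g1, Atp5g3, Atp5k and Atp5o, which take in subunits of the catalytic head (alpha, beta and gamma), the stalk and the rotor. In complex I they were Ndufs1, Ndufs3 and Ndufv1 among the core subunits, and Ndufa9, Ndufa10, Ndufa12, Ndufb5 and Ndufb10 among the accessory subunits. In complex II they were the membrane subunits Sdhc and Sdhd, while the most abundant gene, Sdha, was at a log2 fold change of -0.065 ± 0.065 and was not called. The assembly factor called was Ndufaf1 (-0.21 ± 0.075, adjusted p = 0.0679), while Ndufaf4, the assembly factor with the highest CPM, was at -0.37 ± 0.18 (adjusted p = 0.185). In complex IV the gene called was Cox7a1, at a mean of 1.56 CPM at 1 month and 0.922 CPM at 6 months (-0.78 ± 0.20, adjusted p = 0.0178), while Cox7a2, at 130 CPM on average, was at -0.047 ± 0.13. Cox4i1, the most abundant nuclear gene of complex IV, was at -0.12 ± 0.099 (adjusted p = 0.465).

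**Figure D4:**
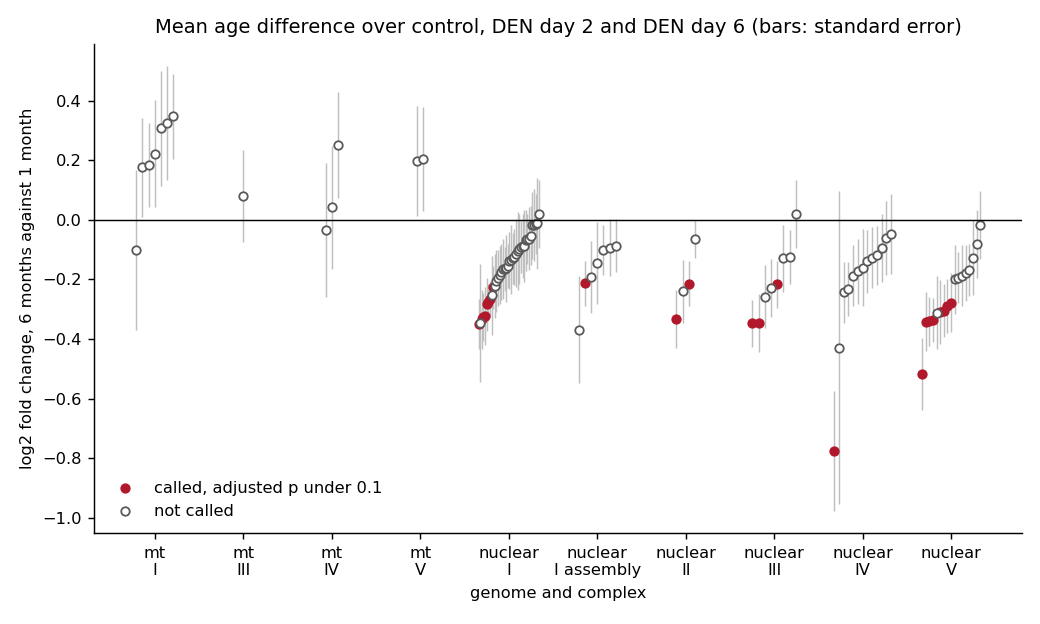
Log2 fold change of each tested gene at 6 months against 1 month, averaged over control, DEN day 2 and DEN day 6, by genome and complex, with bars for the standard error; filled points are called at an adjusted p below 0.1. Of the nuclear points 85 of 87 lie below 0 and 23 are filled, and of the 13 mitochondrial points 11 lie above 0 and none is filled.

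The median age difference in nuclear genes was not the same size in each condition, as far as the values go. The joint test of whether the DEN response differed between the ages, given below, called none of these genes. In the controls alone 0 of 87 nuclear and 0 of 13 mitochondrial genes were called by edgeR or by DESeq2, where edgeR called 2.67% of all genes, and 2 nuclear genes (Cox7a1 and Atp5sl) and 1 mitochondrial gene (mt-Nd2) had an unadjusted p below 0.05, where 12.6% of all genes did. The nuclear median there was 0.0017 and the mitochondrial median 0.46. Without the 3 libraries these were -0.11 and 0.034, with replicate 1 as the only 1-month control. The mitochondrial median rested on the 1-month controls, since it was 0.038 without replicate 2 and 1.02 without replicate 1. On DEN day 2, 12 nuclear genes were lower at 6 months, each of the 87 had a log2 fold change below 0, and the median was -0.34, where 2.63% of all genes were called lower and 5.9% in either direction. The call rested on single libraries: without 1-month DEN day 2 replicate 2, the library high in all nuclear genes, 0 were called and the median was -0.18. Without 6-month DEN day 2 replicate 1 or replicate 3 also 0 were called, without the 3 libraries that stood apart 1, and without 1-month DEN day 2 replicate 1 the number was 30. It was 3 without 1-month DEN day 2 replicate 3 or 6-month DEN day 6 replicate 2, and 5 without either 6-month control. On DEN day 6, 1 nuclear gene was lower, Ndufa12, where 1.86% of all genes were called lower and 4.48% in either direction, and the median was -0.19.

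Cox5a, a subunit of complex IV, had the smallest p at DEN day 2. It was at 144, 203 and 172 CPM in the 1-month libraries and at 94.5, 135 and 110 CPM in the 6-month libraries, so the groups did not overlap, with a log2 fold change of -0.61 ± 0.15 (adjusted p = 0.0369). The other 5 genes with the smallest p were Ndufb5, Ndufa10, Uqcrc1, Atp5f1 and Uqcrfs1, at log2 fold changes between -0.55 and -0.37. Ndufa12 at DEN day 6 was at 38.9, 30.9 and 34.9 CPM in 1-month and at 25.2, 25.5 and 21.98 CPM in 6-month libraries (-0.53 ± 0.16, adjusted p = 0.09999). Its adjusted p lay just under the threshold and 17 of 23 alternative settings lost the call.

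The mitochondrial genes were not called by edgeR between the ages in any of the 3 conditions taken alone. mt-Nd2, a subunit of the membrane arm of complex I, came nearest, with a log2 fold change of 0.35 ± 0.14 averaged over conditions (adjusted p = 0.116). It was at 5984 and 3566 CPM in 1-month controls, and at 6084, 6106 and 5261 CPM on day 2 and 6763, 3377 and 5362 CPM on day 6 after DEN. At 6 months it was at 7385 and 7422 CPM in controls, 6149, 6810 and 6087 CPM on day 2 and 6553, 6399 and 5901 CPM on day 6. The lowest values were those of 2 of the 3 libraries that stood apart, and the ages overlapped. mt-Co1 lay between 7544 and 17166 CPM in 1-month and between 13356 and 18018 CPM in 6-month libraries (0.25 ± 0.18), mt-Nd1 from 2569 to 6171 and from 4303 to 5491 CPM (0.18 ± 0.17), and mt-Nd5 from 2422 to 5699 and from 3411 to 5648 CPM (0.31 ± 0.19). The remaining genes ran from -0.10 ± 0.27 in mt-Nd3 to 0.33 ± 0.19 in mt-Nd4l, both among the genes of uncertain level.

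After DEN, no gene of either genome was called at either age, by edgeR or by DESeq2. At 1 month on day 2, edgeR called 0.0191% of all genes, and 15 of the 87 nuclear genes had an unadjusted p below 0.05, where 7.16% of all genes did. Of the nuclear genes 85 of 87 had a positive log2 fold change with a median of 0.29, and 35 had all 3 DEN libraries above both controls, where 7.96% of all genes did. Without 1-month DEN day 2 replicate 2 the median was 0.13, and without the 3 libraries that stood apart it was 0.27. Cox5a was at 117 and 114 CPM in the controls and at 144, 203 and 172 CPM on day 2, and the groups did not overlap (0.58 ± 0.17, unadjusted p = 0.00343, adjusted p = 0.519). Its partner Cox5b, at 86.0 and 78.4 CPM in controls and 102, 150 and 119 CPM on day 2, had a log2 fold change of 0.59 ± 0.19 (adjusted p = 0.600). The mitochondrial median was 0.20, but -0.22 without the 3 libraries, and -0.23 without 1-month control replicate 2 alone, so its sign rested on that library.

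At 1 month on day 6, edgeR called 0% of all genes, and 1 nuclear gene, Cox5a, had an unadjusted p below 0.05, where 2.72% of all genes did. The nuclear median was 0.11, and 10 of 87 genes had all 3 DEN libraries above both controls, where 7.09% of all genes did. The mitochondrial median was 0.024, and -0.39 without 1-month control replicate 2, 0.63 without replicate 1 and -0.13 without the 3 libraries. Between day 6 and day 2 at 1 month 0 genes were called, where 0.00638% of all genes were, and the nuclear median was -0.18. The complex I subunit Ndufa11 was the only 1 of the 100 genes with an unadjusted p below 0.05 in edgeR, where 5.06% of all genes had one, at a log2 fold change of -0.32 ± 0.13 (unadjusted p = 0.0326).

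At 6 months on day 2 the median difference was larger in the mitochondrial than in the nuclear genes. edgeR called 0.319% of all genes, and 1 mitochondrial gene, mt-Cytb, and 2 nuclear genes, Cox6b2 and Ndufb6, had an unadjusted p below 0.05, where 4.01% of all genes did. All 13 mitochondrial genes had a negative log2 fold change with a median of -0.47, and 9 had all 3 DEN libraries below both controls, where 11.1% of all genes did. Left out 1 at a time, no library took this median outside -0.56 to -0.41. The mitochondrial genes come from shared transcripts and are no independent measurements of it. mt-Cytb was at 9215 and 8606 CPM in controls and at 5207, 6328 and 5290 CPM on day 2, with no overlap (-0.67 ± 0.27, unadjusted p = 0.0279, adjusted p = 1). mt-Nd6 was at -0.60 ± 0.32 and mt-Nd4 at -0.51 ± 0.25, and mt-Nd1 at -0.056 ± 0.30, and the differences among these genes were not tested. The nuclear median was -0.036.

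At 6 months on day 6 the mitochondrial median was -0.22, and 5 of 13 genes had all 3 DEN libraries below both controls, where 9.97% of all genes did. mt-Cytb was then at 7233, 7767 and 6232 CPM, below both controls, while its range overlapped that of day 2. edgeR called 0.249% of all genes, and 0 mitochondrial and 1 nuclear gene had an unadjusted p below 0.05, where 2.99% of all genes did. The nuclear median was -0.056, and 18 of 87 nuclear genes had all 3 DEN libraries below both controls. Between day 6 and day 2 at 6 months 0 genes were called, where 0.0128% of all genes were, and none of the 100 genes had an unadjusted p below 0.05 in edgeR, where 1.72% of all genes did. DESeq2 called 0. In both comparisons with the 6-month controls, the nuclear gene with the smallest p was Cox6b2, the testis form of a complex IV subunit, at 0.140 and 0.199 CPM in controls, 1.69, 0.793 and 0.531 CPM on day 2 and 1.38, 0.454 and 0.970 CPM on day 6. Its log2 fold changes were 2.51 ± 1.0 and 2.41 ± 1.0 (adjusted p = 1 for each), on 3 to 54 counts in a 6-month library. The highest library in the series was 1-month DEN day 2 replicate 2, at 3.32 CPM on 91 counts.

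**Figure D5:**
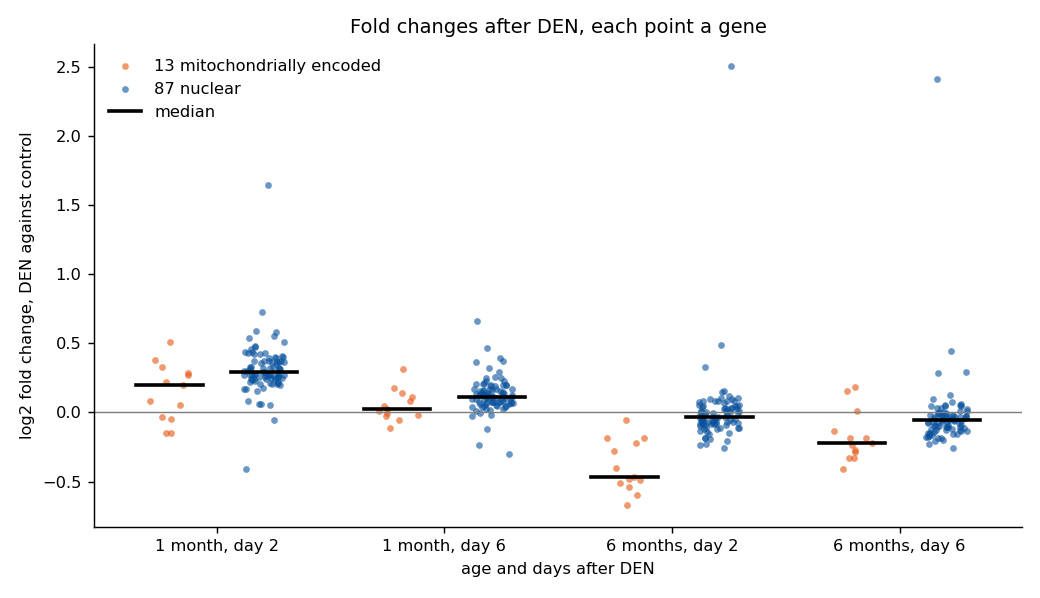
Log2 fold changes of the 13 mitochondrially encoded and 87 nuclear genes after DEN against control of the same age, each point a gene and each bar the median, for both ages and both days. The nuclear median is highest at 1 month on day 2 (0.29), the mitochondrial median is lowest at 6 months on day 2 (-0.47), and the lone points above 1 are Cox6b2.

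Whether the response to DEN differed between the ages was tested over both days together. None of the 100 genes was called by edgeR or by DESeq2, where edgeR called 0.00638% of all genes, and 2 of the 87 nuclear genes had an unadjusted p below 0.05, where 2.37% of all genes did, a share near that of the nuclear genes. The 2 were Cox5a and Cox5b, with a difference of the log2 fold changes, 6 months minus 1 month, of -0.82 and -0.78 on day 2 and -0.49 and -0.55 on day 6 (unadjusted p = 0.0117 and 0.0299, adjusted p = 1 for each). The median differences at day 2 were -0.56 over the mitochondrial and -0.33 over the nuclear genes. On day 6, 3 nuclear genes had all DEN libraries above both controls at 1 month and below both at 6 months, where 0.65% of all genes did.

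Other genes that serve oxidative phosphorylation were counted in the same comparison of the ages, in which 10.5% of all genes were lower and 22.6% were called in either direction. Of 45 tested electron carriers and assembly factors outside the symbol rule, 11 were lower and 2 higher at 6 months averaged over conditions, with a median log2 fold change of -0.12. Cyc1, the cytochrome c1 of complex III, was at -0.31 ± 0.099 (adjusted p = 0.0456), and Cox10 and Cox11, which make the heme and insert the copper of complex IV, were at -0.48 ± 0.12 and -0.46 ± 0.13. Cox19, another factor of complex IV copper insertion, rose by 0.46 ± 0.082 (adjusted p = 0.00214), and Acad9, which assembles complex I, rose by 0.20 ± 0.059. Of 32 tested genes for mitochondrial DNA upkeep, transcription and mRNA stability, 11 were lower and 0 higher, with a median of -0.15. They included Lrpprc, which stabilises mitochondrial mRNAs (-0.36 ± 0.069, adjusted p = 0.00316), Mtpap, the mitochondrial poly(A) polymerase (-0.21 ± 0.071), and Polg, the mitochondrial DNA polymerase (-0.21 ± 0.077). Of 77 mitochondrial ribosomal protein genes 13 were lower and 0 higher, with a median of -0.11, against -0.012 over all genes. In the 4 comparisons of DEN with control, 0 genes of these lists were called.

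Of 17 nuclear regulators of respiratory genes, 1 was lower and 4 were higher at 6 months, which is near the 22.6% of all genes called in either direction. The lower one was Ppargc1a, which encodes the coactivator PGC-1alpha and drives mitochondrial gene programmes, at a mean of 22.5 CPM at 1 month and 11.5 CPM at 6 months (-0.95 ± 0.23, adjusted p = 0.0136). The higher ones were Nfe2l2 (0.39 ± 0.098), Gabpb1 (0.35 ± 0.097), Gabpb2 (0.32 ± 0.12) and Hcfc1 (0.28 ± 0.11); the Gabpb genes encode partners of the ETS factor GABPA. Nrf1, Gabpa, Yy1 and Esrra themselves were not called, at 0.093 ± 0.070, 0.087 ± 0.089, -0.091 ± 0.055 and -0.18 ± 0.23.

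Promoters were read for the letters these factors bind, since many nuclear respiratory genes are known to carry them. RefSeq promoter sequences, from 250 bases before to 50 after the start, were matched for 73 of the 92 nuclear genes, 18 of the 23 called lower among them. The NRF1 letters (GCGCA, any base, then GCGC, on either strand) were in 19 of the 73 and in 5.19% of the promoters of all 27025 genes in that table. CCGGAAG, the GABP core, was in 23.3 and 9.93%, AAGATGGCG, the YY1 core, in 9.59 and 1.64%, and TCAAGGTCA, the ESRRA site, in 2.74 and 0.466%. Of the genes called lower with age, 6 of 18 had the NRF1 letters, and of the tested genes not called, 13 of 53. The promoters below are those of the 3 called genes with the smallest p that hold the NRF1 letters, given in GRCm38.p6 and 5′ to 3′ on the gene's strand, and capitals mark every match to the 4 motifs. They are Uqcrc1 (chr9:108936398-108936697, plus strand), Sdhd (chr9:50603800-50604099, minus strand) and Atp5o (chr16:91931581-91931880, minus strand).

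Uqcrc1: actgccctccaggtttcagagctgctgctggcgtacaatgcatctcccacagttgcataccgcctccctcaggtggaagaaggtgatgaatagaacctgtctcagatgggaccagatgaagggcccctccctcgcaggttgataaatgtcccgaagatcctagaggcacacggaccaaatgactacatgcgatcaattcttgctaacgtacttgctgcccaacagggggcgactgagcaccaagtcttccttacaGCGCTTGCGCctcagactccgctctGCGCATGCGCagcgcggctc

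Sdhd: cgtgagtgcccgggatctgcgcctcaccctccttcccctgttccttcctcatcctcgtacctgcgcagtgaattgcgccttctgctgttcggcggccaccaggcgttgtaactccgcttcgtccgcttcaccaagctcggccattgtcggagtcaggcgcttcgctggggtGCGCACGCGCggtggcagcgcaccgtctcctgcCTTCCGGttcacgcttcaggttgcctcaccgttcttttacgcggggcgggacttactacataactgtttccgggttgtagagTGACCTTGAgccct

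Atp5o: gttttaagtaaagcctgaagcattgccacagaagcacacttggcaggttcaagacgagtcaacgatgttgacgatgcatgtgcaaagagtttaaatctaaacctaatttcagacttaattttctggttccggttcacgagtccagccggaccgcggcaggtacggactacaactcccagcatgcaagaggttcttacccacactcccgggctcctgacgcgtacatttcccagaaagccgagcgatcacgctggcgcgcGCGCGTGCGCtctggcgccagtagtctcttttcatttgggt

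Uqcrc1 held the NRF1 letters at 2 places, both downstream of the start. Sdhd, the small membrane anchor of complex II, held the NRF1, GABP and ESRRA letters at 1 place each, and its level fell from a median of 252 CPM at 1 month to 192 CPM at 6 months (log2 fold change -0.33 ± 0.096, adjusted p = 0.0298). Atp5o, the subunit that ties the stalk of the ATP synthase to its head, held the NRF1 letters at 1 place and had a log2 fold change of -0.34 ± 0.099 (adjusted p = 0.0301), with 41.6% of its 50-base words in another annotated transcript. The promoters of Ndufa10, Ndufb5 and Atp5g1, which also fell, held none of the 4 motifs in this window. A match is no evidence of binding, and the letters were not tested against the age difference.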

How the data were processed

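RNA-seq was made from 16 pools of liver RNA, each of 3 mice, in 6 groups of 2 or 3 libraries. Per the labels and the study's methods, the authors aligned reads to GRCm38 with TopHat2 2.0.13 and deposited raw counts per gene, whole numbers that were not normalized. The counting program and whether it used strand are details not given in the sources here. The submitters' processing notes also name Cufflinks 2.2.1, Cuffnorm and DESeq2 1.10.1. A further 16 columns of normalized per-sample values were not used, and 10 rows without counts were left out of the 47729.

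Counts of all genes were fitted with edgeR 4.0.16 (R 4.3.3) in 1 quasi-likelihood model of 6 group means, with TMM scaling and filterByExpr, with Benjamini-Hochberg adjustment over the 15684 genes tested. Genes were called at an adjusted p below 0.1. The code was tested on simulated data with 200 changed genes. CPM are TMM-scaled counts of a gene relative to all counts of its library, while shares of counts use the raw totals. Alternatives were DESeq2 1.42.0, its size factors, no filter, scaling without the mitochondrial genes, a replicate block, only the groups compared, and leaving out libraries. Shares of 50-base words and transcript lengths came from GENCODE M21, using each gene's principal transcripts, and promoters from RefSeq.

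The genes and lists were chosen with earlier results of these data known, and the age comparisons on DEN day 2 and day 6 alone were added after the data were seen. Named were all mitochondrial genes, in each comparison up to 6 called nuclear genes with the smallest p in each direction, the nuclear gene of highest mean CPM in each complex, and the isoform sets. Other genes were named after their values were seen. Labels do not say whether the pools of a group came from separate experiments, so p-values measure the spread between these pools. Libraries held 19039330 to 34459774 counts.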

Additional observations from a re-analysis of the deposited data

Results flagged for a closer look

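At DEN day 6, 3 genes had all DEN libraries above both controls at 1 month and all DEN libraries below both controls at 6 months, as had 0.65% of all genes. For Ndufa10, an accessory subunit of complex I, the 6-month minus 1-month log2 fold change was -0.227 (0.17 at 1 month and -0.056 at 6 months). For the complex IV subunits Cox5a and Cox5b it was -0.494 (0.37 and -0.12) and -0.555 (0.40 and -0.16). The difference at this day was not tested by itself. In the joint test of both days, edgeR's quasi-likelihood test gave Cox5a and Cox5b an adjusted p of 1, and it called none of the 100 genes.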

How the results depend on the processing

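The direction of each result with a call held in every alternative, and the genes called between the ages averaged over conditions numbered 21 to 32, at most 1 of them mitochondrial, in the alternatives other than leaving out a single library. Leaving out 1 library at a time gave 15 to 31, at most 2 of them mitochondrial. On DEN day 2 the 12 became 1 without the 3 libraries that stood apart and 0 in a fit of only the groups compared, and 0 to 30 with 1 library left out. On DEN day 6 the 1 became 5 with DESeq2, and 0 with DESeq2 size factors in edgeR, with scaling without the mitochondrial genes, without the 3 libraries and with only the groups compared, and 0 to 2 with 1 library left out. The cause was not tested. Comparisons with DEN, between days and of the DEN response between ages gave 0 calls among these genes in each alternative run. The labels do not say that a replicate number marks shared animals or a batch, and same-numbered libraries did not all deviate together from their group means (correlations from -0.30 up, with medians of 0.18, -0.0036 and 0.13 for the 3 numbers), so they were not treated as pairs. In 11 of 16 libraries the best match had their own number, a hint from the data and not from the design. With the replicate number as a block the counts were 26 averaged over conditions, 11 on DEN day 2 and 1 on DEN day 6, and 0 in the other comparisons.

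The mitochondrial share differed between the ages by 0.864 percentage points, by 0.914 without the 10 most abundant other genes and by 0.19 without the 3 libraries, and the nuclear share by -0.114, -0.145 and -0.217. With 1 library left out they ran from 0.63 to 1.03 and from -0.148 to -0.054. With 2 control pools a group, the comparisons with controls rest on few libraries.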
